A study of Mus musculus with 4 samples.

Results

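The non-cardiomyocyte (NCM) fraction of hearts from Mst1/2-deficient (KO) mice was compared with the same fraction of wild-type (WT) hearts. Its members were single-cell wells whose label in the deposited per-well reports named an animal and ended in NCM, that were not control wells, and that held at least 10000 UMIs (unique molecular identifiers, the counted RNA molecules) and 300 detected genes. These were 2857 of the 3990 wells kept in the series, and the other 1133 came from the cardiomyocyte (CM) fraction. WT1 gave 692 NCM wells, WT2 gave 703, KO1 gave 715 and KO2 gave 747. UMIs were summed over the wells of each animal, so that each comparison set 2 KO animals against 2 WT animals.

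All 4 mice were of the C57BL/6 strain and the tissue was heart. Low-speed centrifugation had parted cardiomyocytes from the remaining cells. The targeted allele, any Cre driver, the age of the mice and any injury or treatment are not given in the labels, although the title of the series speaks of myocardial infarction, an MST1/2 inhibitor and a leukotriene B4 receptor antagonist. The NCM wells of both WT animals shared 1 chip and those of both KO animals shared another, so genotype and chip cannot be told apart in any result below.

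MST1 (gene Stk4) and MST2 (gene Stk3) are the upstream kinases of the Hippo pathway. With the scaffold SAV1 they activate the LATS kinases, which hold the coactivators YAP and TAZ (genes Yap1 and Wwtr1) out of the nucleus. When YAP or TAZ enters the nucleus it binds TEAD factors and drives targets such as Ccn2 and Ankrd1. In the heart the pathway is known as a brake on cardiomyocyte growth, and MST1/2 also act in leukocytes. The non-cardiomyocytes of the heart are mainly endothelial cells, fibroblasts, pericytes and leukocytes. Macrophages and dendritic cells among them show antigen to T cells on MHC class II.

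The KO wells stood apart by their mitochondrial RNA. Mitochondrially encoded UMIs made up 7.45% of the summed NCM UMIs in WT1 and 11.2% in WT2, against 58.1% in KO1 and 36.5% in KO2. Both KO animals lay above both WT animals, by 37.97 percentage points on average, and the two-sided exact permutation p was 0.333, the smallest that 2 against 2 animals can give. Wells with under 30% mitochondrial UMIs numbered 645 in WT1, 570 in WT2, 18 in KO1 and 160 in KO2. The fraction-wide fit of KO against WT was therefore also run over those wells alone, and the comparison with the CM fraction was not. In the CM fraction the mitochondrial share was 38.1, 35.7, 47.2 and 36.4% in WT1, WT2, KO1 and KO2. Haemoglobin UMIs took 1.19 and 3.42% in the WT animals and 4.48 and 11.96% in the KO animals. Mitochondrial and haemoglobin genes were left out of all totals and tests that follow, and the part that the mitochondrial share had in those results was not tested. Outside them the NCM sums held 84733290 UMIs in WT1, 93816921 in WT2, 26447307 in KO1 and 54008036 in KO2, so KO values, those of KO1 above all, rest on fewer molecules.

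**Figure D1:**
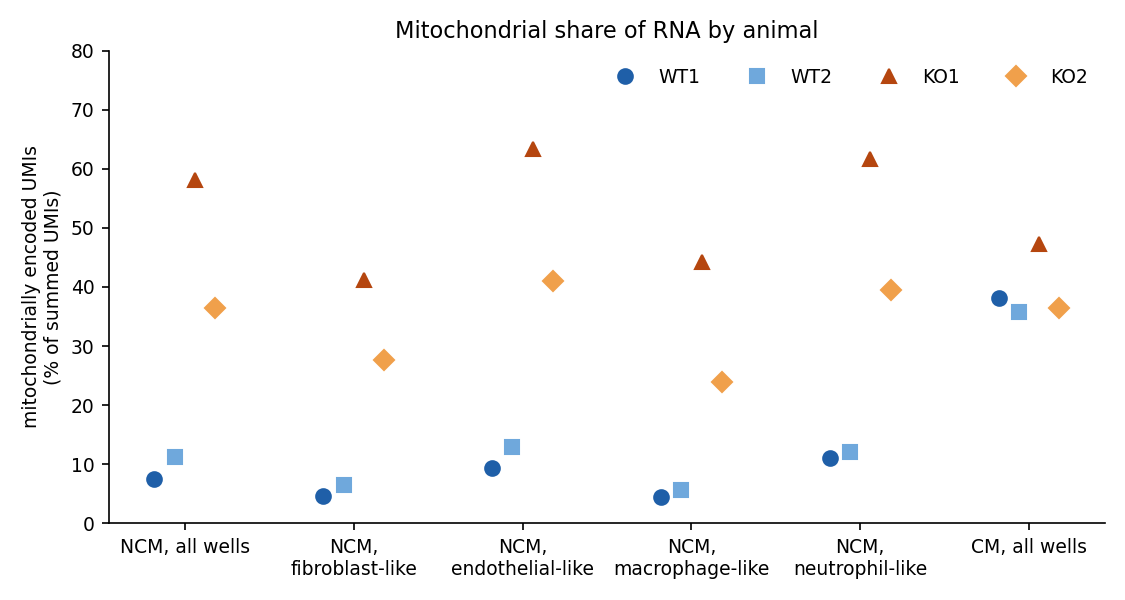
Share of mitochondrially encoded UMIs (y axis, % of summed UMIs) in each of 4 animals, for all NCM wells, for 4 classes of NCM wells and for the CM fraction (x axis). In the NCM fraction KO1 (58.1%) and KO2 (36.5%) lie above WT1 (7.45%) and WT2 (11.2%), and the same order holds in each of the 4 classes.

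The fraction was checked against its label with marker lists. The 15 cardiomyocyte markers together took 0.140, 0.395, 0.321 and 0.755% of the UMIs of WT1, WT2, KO1 and KO2, against 3.54 to 8.88% in the CM fraction. Fibroblast markers took 1.87, 1.502, 1.37 and 1.45% and endothelial markers 0.288, 0.629, 0.996 and 0.550%. Macrophage markers took 1.402 and 1.57% in the WT animals and 0.770 and 0.924% in the KO animals, without overlap. The neutrophil markers were likewise lower in both KO animals, at 0.217 and 0.171% against 0.359 and 0.247%. No marker of these 5 lists was at 0 in any animal. A total of 400 well barcodes occurred on both NCM chips.

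Wells were grouped by clustering, and 4 classes had at least 20 wells in each animal. Fibroblast-like wells numbered 155, 123, 89 and 119 in WT1, WT2, KO1 and KO2. Endothelial-like wells numbered 66, 135, 247 and 87, macrophage-like wells 112, 93, 39 and 45, and neutrophil-like wells 74, 40, 29 and 20. These numbers say what each class sum rests on. They are not compared between genotypes, because genes that define the classes also differed between KO and WT. Of the 2 fibroblast-like clusters, the one led by Gsn and Dcn held most wells of WT1, WT2 and KO1, and the one led by Col5a2, Col3a1 and Postn held 61 of the 119 wells of KO2. Among wells with under 30% mitochondrial UMIs, neutrophil-like wells numbered 68, 35, 0 and 1 in WT1, WT2, KO1 and KO2. Endothelial-like wells numbered 63, 124, 2 and 6 there, macrophage-like wells 112, 93, 2 and 31, and fibroblast-like wells 154, 120, 11 and 56. Fraction-wide values over those wells thus rest on a different mix of classes in KO and WT, and its part was not tested.

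No gene passed an adjusted p of 0.05 across the NCM fraction. The quasi-likelihood test of edgeR with Benjamini-Hochberg adjustment over 17216 genes gave 0 higher and 0 lower genes, and at an unadjusted p under 0.05 it gave 1022 higher and 1053 lower genes, 5.94 and 6.12% of those tested. DESeq2 called 390 higher and 371 lower. Both KO values lay above both WT values for 21.2% of the genes and below them for 23.6%. These shares are the background against which the counts of gene groups below are read, and "higher" or "lower in both KO animals" means such separation and not a passed test. The genotype difference of all genes had a median of -0.01 on the log2 scale with TMM normalisation and 0.16 with library totals alone. Levels are given as normalised CPM, UMI counts scaled to an even total after TMM normalisation.

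The kinases themselves were little lower. Stk4, on chromosome 2, stood at 55.4, 50.8, 41.1 and 37.4 normalised CPM in WT1, WT2, KO1 and KO2. Both KO animals were below both WT animals, and the log2 difference was -0.44 ± 0.28 (SE, adjusted p = 0.559 by edgeR). Stk3, on chromosome 15, stood at 24.5, 41.4, 26.0 and 26.2, and the KO values lay within the WT range (log2 difference -0.33 ± 0.38, adjusted p = 0.757 by edgeR). Transcripts of both genes were thus counted in the KO wells. Which part of either gene was removed is not given, so a count of its remaining sequence does not test the deletion. Fewer cells of a type and less RNA per cell cannot be told apart in these sums.

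Each of the 12 higher and 12 lower genes with the smallest unadjusted p had no overlap between groups, by the rule that chose them, and none was past the threshold. Among the higher ones were Lyz1, Xirp2, Irf8, Rsad2, Cmpk2, Ube2z, Erg, Mkrn1, Angptl4, Slc25a37 and Amotl2. The lower ones were H2-Aa, H2-Ab1, Mgl2, H2-DMb2, Lyz2, H2-Eb1, Lrrn4cl, H2-DMb1, Asprv1, Il1f9, Rnu2-10 and Ackr4. One not described with a group below is Mkrn1, a ubiquitin ligase that is also a leading gene of the erythroid-like wells, at 78.8, 108, 252 and 394 normalised CPM in WT1, WT2, KO1 and KO2. Erythroid-like wells held 3.34, 29.6, 35.7 and 43.6% of its UMIs. Another is Ube2z, a ubiquitin-conjugating enzyme, at 28.4, 29.0, 78.6 and 102. Ackr4, a scavenging receptor for homing chemokines, stood at 62.9, 70.5, 14.96 and 16.8, and the skin-type protease gene Asprv1, also found in neutrophils, at 31.5, 19.5, 1.32 and 1.92.

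The MHC class II genes had the lowest median of the 32 gene lists. Of 10 members tested, 8 were lower in both KO animals, 2 overlapped and 0 were higher, with a median log2 difference of -1.95. H2-Aa and H2-Ab1, which encode the chains of the I-A molecule, were among the genes with the smallest p in the fraction. H2-Aa stood at 1935, 2126, 467 and 336 normalised CPM in WT1, WT2, KO1 and KO2, with a log2 difference of -2.34 ± 0.23 (SE, adjusted p = 0.181 by edgeR). H2-Ab1 stood at 3235, 4041, 829 and 1006, with a log2 difference of -1.99 ± 0.21 (adjusted p = 0.181 by edgeR). For both genes the lowest WT value was more than the highest KO value by a wide margin, and neither passed the threshold. In the CM fraction the log2 differences were -0.05 for H2-Aa and 0.58 for H2-Ab1.

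The other chains and the peptide loaders followed the same pattern in level. H2-Eb1, the beta chain of I-E, stood at 876, 983, 328 and 299 normalised CPM (log2 difference -1.57 ± 0.20). The loading factor H2-DM, which exchanges the invariant chain peptide for antigen, was lower in all of its chains. H2-DMa stood at 193, 208, 64.6 and 41.9, H2-DMb1 at 155, 131, 40.1 and 32.2, and H2-DMb2 at 50.7, 58.2, 8.11 and 6.39. Cd74, the invariant chain that chaperones class II molecules, stood at 108, 154, 63.4 and 42.9 (log2 difference -1.30). Ciita, the coactivator that class II transcription needs, was barely counted and overlapped, at 3.14, 8.28, 6.41 and 2.42. H2-Ob, a modulator of loading, overlapped as well at 6.18, 10.1, 4.48 and 7.09. The median over the list stayed between -2.24 and -1.57 in 16 other settings, and it was -2.24 over wells with under 30% mitochondrial UMIs. Of those wells, 2 of KO1 and 31 of KO2 were macrophage-like, against 112 of WT1 and 93 of WT2.

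**Figure D2:**
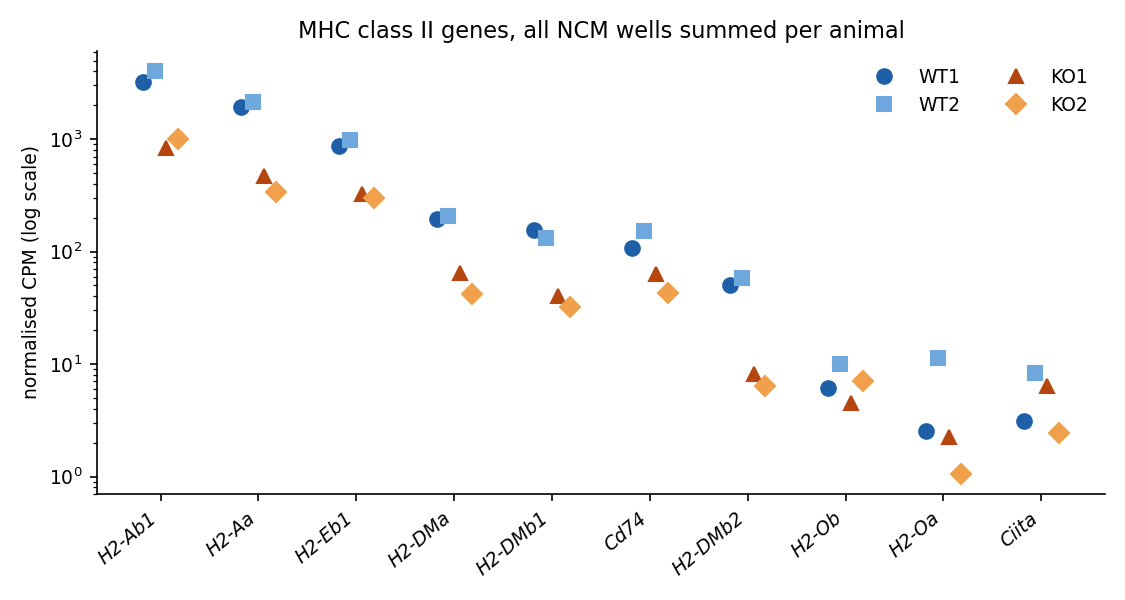
Level of each of 10 MHC class II genes (y axis, normalised CPM on a log scale) in the summed NCM wells of WT1, WT2, KO1 and KO2. For 8 genes both KO points lie below both WT points, and for Ciita and H2-Ob the groups overlap.

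Because these genes lay lower together, the stretch upstream of their starts is shown for 4 of them. Each sequence is the 250 bases before the gene's start in RefSeq, build GRCm38.p6, on the gene's strand. Capitals mark the letters GATTGG on the same strand or its reverse complement on the other, the core of the Y box that NF-Y binds in class II promoters.
H2-Aa (chr17:34287824-34288073, minus strand): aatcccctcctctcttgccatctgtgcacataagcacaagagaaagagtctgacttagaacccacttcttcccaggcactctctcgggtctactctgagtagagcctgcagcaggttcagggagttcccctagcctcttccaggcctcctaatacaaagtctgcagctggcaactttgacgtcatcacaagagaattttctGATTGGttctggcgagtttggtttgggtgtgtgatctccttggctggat
H2-Eb1 (chr17:34305617-34305866, plus strand): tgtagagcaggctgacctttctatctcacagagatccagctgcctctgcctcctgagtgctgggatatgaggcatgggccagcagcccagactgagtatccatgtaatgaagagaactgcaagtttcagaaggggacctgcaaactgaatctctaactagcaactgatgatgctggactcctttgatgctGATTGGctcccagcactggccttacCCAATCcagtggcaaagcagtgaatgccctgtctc
H2-DMb1 (chr17:34152941-34153190, plus strand): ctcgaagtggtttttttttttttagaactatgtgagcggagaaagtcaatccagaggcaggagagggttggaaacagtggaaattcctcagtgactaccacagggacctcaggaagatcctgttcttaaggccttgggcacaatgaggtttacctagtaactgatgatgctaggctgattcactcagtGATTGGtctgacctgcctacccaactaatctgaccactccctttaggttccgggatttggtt
H2-DMb2 (chr17:34144999-34145248, plus strand): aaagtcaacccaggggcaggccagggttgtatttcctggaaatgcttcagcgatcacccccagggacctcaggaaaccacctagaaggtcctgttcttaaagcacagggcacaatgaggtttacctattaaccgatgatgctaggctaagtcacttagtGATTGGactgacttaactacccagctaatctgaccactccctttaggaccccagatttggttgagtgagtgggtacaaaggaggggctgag
The match lay 49 to 44 bases before the start of H2-Aa, 62 to 57 before that of H2-DMb1 and 91 to 86 before that of H2-DMb2. H2-Eb1 had 1 match at 60 to 55 bases and a second, on the opposite strand, at 35 to 30. All 7 of the 7 tested members with a window held the letters (H2-Aa, H2-DMa, H2-DMb1, H2-DMb2, H2-Eb1, H2-Oa and H2-Ob), against 14.6% of 32851 windows, and H2-Ab1, Cd74 and Ciita were not matched to a window. H2-Ob held them too, although its levels overlapped. A match is a description of the letters and not a binding site.

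Among the 4 cell classes, the class II list lay lowest in macrophage-like wells. In macrophage-like wells 7 of the 8 members tested were lower in both KO animals, with a median of -2.14, where the background was 24.1% of 12215 genes lower and 17% higher. H2-Aa stood there at 2617, 3006, 277 and 248 normalised CPM (log2 difference -3.42 ± 0.29, adjusted p = 0.27 by edgeR). H2-Ab1 stood at 3828, 5940, 655 and 412 (-3.19 ± 0.38) and H2-Eb1 at 1026, 1318, 294 and 105 (-2.56 ± 0.55). Both KO animals were far below both WT animals for all 3 genes, and again none passed the threshold. In endothelial-like wells the median of the list was 0.02 and H2-Aa stood at 619, 377, 343 and 274. In fibroblast-like wells the median was 0.30 and H2-Aa stood at 137, 115, 262 and 166, higher in both KO animals.

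The difference between classes was tested directly for every gene, with the animal as a block. H2-Ab1 was the only gene whose genotype difference was lower in macrophage-like than in endothelial-like wells, by 3.25 ± 0.41 on the log2 scale (value -3.25; adjusted p = 0.0453 by edgeR, 13441 genes tested). With library totals alone the value was -3.30 and the adjusted p 0.0526, above the threshold. The H2-Aa UMIs of the fraction were also placed by cluster. An unnamed cluster led by H2-Ab1, H2-Aa and Cd209a held 47.9, 45.3, 24.0 and 6.69% of the H2-Aa UMIs of WT1, WT2, KO1 and KO2, from 29, 18, 15 and 2 wells. Class II genes lead this cluster, so their levels also helped to place wells in it. Its part in the fraction-wide values was not tested. Macrophage-like wells held 32.3, 38.8, 5.83 and 9.45%.

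The lysozyme genes lay apart in opposite directions. Lyz2, the lysozyme of myeloid cells, stood at 5432, 5611, 1440 and 1951 normalised CPM across the fraction (log2 difference -1.70 ± 0.21, adjusted p = 0.217 by edgeR). Lyz1, its near-identical neighbour known from Paneth cells, stood at 8.20, 9.15, 104 and 69.2 (3.32 ± 0.35, adjusted p = 0.181 by edgeR). Both separations held in macrophage-like wells, where Lyz2 stood at 16512, 16839, 5410 and 5964 and Lyz1 at 16.3, 31.0, 460 and 343. Because the 2 genes share sequence and the rule for reads that match both is not given, the split of reads between them is uncertain.

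Among other macrophage genes, those of resident cells were lower and those of monocyte-derived cells were mixed. Of 17 resident macrophage genes, 9 were lower in both KO animals and 1 was higher, with a median of -0.80 that was -0.34 without WT2 and -0.53 without KO1. Mgl2, a lectin of tissue macrophages and dendritic cells, stood at 53.0, 59.7, 7.499 and 6.18 normalised CPM (log2 difference -3.04). Pf4, a chemokine abundant in cardiac macrophages, stood at 2374, 2947, 1528 and 1539, and the haemoglobin scavenger Cd163 at 28.6, 75.4, 15.8 and 21.2. Gas6, a bridge between dying cells and their receptors, was the member that was higher, at 73.2, 79.0, 91.5 and 103. Of 16 genes of monocyte-derived macrophages, 3 were higher and 4 lower (median 0.07): Spp1 (osteopontin) stood at 1993, 1302, 2358 and 2589, and Gpnmb at 59.6, 33.1, 67.5 and 125. Beside these values stand the macrophage marker share given above and the markers within the class. In macrophage-like wells macrophage markers took 4.39, 4.63, 2.62 and 2.65% of UMIs, and endothelial markers took 0.0815, 0.0743, 0.502 and 0.261%. The part that such RNA of other cells had in the class values was not tested.

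Of 20 inflammatory cytokine genes, 11 were lower in both KO animals and 2 higher over the fraction (median -0.61, and -1.02 over wells with under 30% mitochondrial UMIs). Of those wells, 2 of KO1 and 31 of KO2 were macrophage-like, and 0 and 1 were neutrophil-like. The direction differed by class. In macrophage-like wells 9 of 18 were lower and 2 higher, against a background of 24.1 and 17% of genes. In neutrophil-like wells 8 of 16 were lower and 2 higher, against 21.7 and 15.6%. In endothelial-like wells 9 of 18 were higher and 0 lower (median 0.90), against 20.6 and 19.7%. In fibroblast-like wells 8 of 19 were higher and 0 lower (median 0.59), against 20.1 and 23%. The lower macrophage and neutrophil marker shares of the KO animals, given above, move with the fraction-wide values, and their part was not tested. Il1f9, an interleukin-36 cytokine, stood at 81.5, 44.1, 1.59 and 4.10 normalised CPM (log2 difference -4.45). Il1b, the pyrogenic interleukin 1 beta, stood at 1510, 1363, 1086 and 749, and Nlrp3, the inflammasome sensor that drives its cleavage, at 47.7, 56.0, 21.9 and 20.2. The decoy receptor Il1r2 stood at 509, 312, 125 and 176 and the receptor antagonist Il1rn at 317, 158, 102 and 93.8, so genes that promote and genes that restrain interleukin 1 were both lower. Tnf, Ptgs2 and Nos2 overlapped.

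Chemokine genes were lower in part. Of 17 CC chemokine and receptor genes, 8 were lower and 1 higher (median -0.62, but -0.38 without KO1 and -0.96 without KO2). In endothelial-like wells 9 of 15 were higher and 0 lower, against a background of 20.6 and 19.7% of genes. Ccl4, an attractant of leukocytes, stood at 4530, 3407, 1504 and 1940 normalised CPM (log2 difference -1.20), and its relative Ccl3 at 967, 618, 337 and 340 (-1.23). Ccl5 was the member that was higher, at 303, 224, 385 and 314. The median of this list was -0.03 over wells with under 30% mitochondrial UMIs. Of 15 CXC genes, 4 were lower and 3 higher: the neutrophil attractants Cxcl1 and Cxcl2 were lower (2547, 2010, 950 and 1554 for Cxcl1), and the interferon-induced Cxcl9 was higher (4.53, 11.3, 36.6 and 14.1).

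Leukotriene and prostanoid genes, the pathway named in the series title, had no single direction across classes. Of 23 tested, 7 were lower and 1 was higher (median -0.15), against the background of 23.6% lower and 21.2% higher. In endothelial-like wells 6 of 20 were higher and 4 lower (background 20.6 and 19.7%). In fibroblast-like wells 7 of 22 were higher and 3 lower (20.1 and 23%). Macrophage-like wells had 1 of 20 higher and 7 lower (17 and 24.1%). Neutrophil-like wells had 2 of 17 higher and 6 lower (15.6 and 21.7%). These counts were not tested. The median was -0.69 over wells with under 30% mitochondrial UMIs, -0.42 with wells thinned to an even depth and 0.02 with library totals alone, so it turned sign with the scaling. Ltb4r1, the leukotriene B4 receptor, was barely counted and overlapped at 1.49, 2.22, 1.90 and 1.44 normalised CPM. Alox5, which starts leukotriene synthesis, stood at 6.42, 4.36, 2.14 and 3.56 and its activating protein Alox5ap at 560, 546, 249 and 381. Lta4h, the enzyme that makes leukotriene B4, overlapped at 44.4, 40.9, 43.2 and 36.6. Dpep1, a dipeptidase that converts leukotriene D4, stood at 183, 245, 89.7 and 92.4 (log2 difference -1.24), and it is also one of the fibroblast markers used here.

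Neutrophil genes were lower across the fraction and within neutrophil-like wells. Of 20 members, 10 were lower in both KO animals and 1 higher (median -0.71, but -0.26 without WT1 and -1.38 over wells with under 30% mitochondrial UMIs). Of those wells, 0 of KO1 and 1 of KO2 were neutrophil-like, against 68 of WT1 and 35 of WT2. Retnlg stood at 46.2, 46.2, 6.18 and 9.27 normalised CPM, the receptor Trem1 at 121, 77.0, 24.97 and 34.2, and the alarmin S100a8 at 741, 357, 229 and 244. Camp, a granule gene of immature neutrophils, was the exception at 0.579, 0, 28.4 and 0.923. Within neutrophil-like wells 12 members were lower and 0 higher (median -1.45), where the background was 21.7% of 8080 genes lower and 15.6% higher. Members such as S100a8, S100a9 and Hdc are also markers that named this class and leading genes of its cluster. Their levels thus also helped to place wells in it. The class itself depended on the clustering: at a resolution of 0.5 it held 64, 36, 14 and 9 wells in WT1, WT2, KO1 and KO2, under the minimum of 20 in both KO animals, so every result on neutrophil-like wells rests on the finer clusters.

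Neutrophil-like wells also held the largest gap in NF-kB feedback. Nfkbia encodes IkB-alpha, the inhibitor that NF-kB itself induces, and stood there at 43303, 41559, 8788 and 10617 normalised CPM (log2 difference -2.13 ± 0.28, adjusted p = 0.177 by edgeR). Il1f9 stood at 1242, 1296, 2.68 and 14.8, Ccl3 at 6510, 5448, 1433 and 682 and Il1b at 7834, 9496, 3949 and 3263. The antioxidant enzyme Prdx6 stood at 1013, 956, 87.8 and 88.6. All KO values of these 5 genes lay below all WT values, and 0 genes of the class passed the threshold in either direction by edgeR (305 higher and 377 lower at an unadjusted p under 0.05, 3.77 and 4.67%, and 187 and 120 by DESeq2). Of the 18 NF-kB and feedback genes, 10 were lower and 0 higher in this class (median -1.34), against a background of 21.7 and 15.6%. Over the whole fraction 9 of 18 were lower and 1 higher (median -0.35). That median was -0.72 over wells with under 30% mitochondrial UMIs, of which 0 of KO1 and 1 of KO2 were neutrophil-like. In fibroblast-like wells the same list had 9 higher and 2 lower, against a background of 20.1 and 23%. In endothelial-like wells it had 7 higher and 3 lower, against 20.6 and 19.7%. Nfkbia stood at 2042, 2509, 2128 and 2478 in endothelial-like wells, where the groups overlapped.

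Nfkbia and Rsad2, the antiviral gene described below, carry letters of the motifs of their known regulators in the 250 bases before their starts (RefSeq, GRCm38.p6, gene strand). Capitals mark GGAATTTCC, a kappaB motif, in Nfkbia and GAAA followed after any 2 bases by GAAA, an interferon response motif, in Rsad2, searched on both strands.
Nfkbia (chr12:55492648-55492897, minus strand): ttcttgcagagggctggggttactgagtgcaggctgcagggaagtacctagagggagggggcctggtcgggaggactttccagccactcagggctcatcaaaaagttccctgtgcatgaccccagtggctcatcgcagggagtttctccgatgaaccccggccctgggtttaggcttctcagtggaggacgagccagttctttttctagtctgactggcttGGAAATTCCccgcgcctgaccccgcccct
Rsad2 (chr12:26456453-26456702, minus strand): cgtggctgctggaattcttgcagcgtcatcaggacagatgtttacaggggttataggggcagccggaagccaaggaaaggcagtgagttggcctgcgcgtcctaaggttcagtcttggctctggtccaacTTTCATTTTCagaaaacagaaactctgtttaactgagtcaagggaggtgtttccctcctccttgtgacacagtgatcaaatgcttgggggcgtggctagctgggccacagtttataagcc
The match lay 29 to 21 bases before the start of Nfkbia and 120 to 111 before that of Rsad2, both on the opposite strand. The first motif was in 0.286% of all windows and in 3 of 14 NF-kB list members with a window (Icam1, Nfkbia and Tnfaip3). The second was in 2.98% of all windows and in 9 of 17 interferon list members with one.

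The test of the difference between classes bore on these genes. Against fibroblast-like wells, the genotype difference in neutrophil-like wells was lower for 30 genes and higher for 3, 0.228 and 0.0228% of 13168 tested. Nfkbia led them with a value of -2.31 (adjusted p = 1.09e-11 by edgeR), followed by Il1f9 at -8.25 (adjusted p = 2.53e-08). These p values rest on 2 animals of each genotype. In the fit of neutrophil-like wells alone neither gene passed the threshold. Il1f9 is also one of the neutrophil markers used here. All NCM wells together held 6615, 3851, 47 and 222 of its UMIs in WT1, WT2, KO1 and KO2, so its KO values rest on few molecules. Ccl3 differed by -3.22, Cxcl2 by -2.52 and Clec4e, a receptor for mycobacterial and dead-cell ligands, by -3.22. Against endothelial-like wells 8 genes were lower and 3 higher, 0.0632 and 0.0237% of 12652, with Nfkbia at -2.26 (adjusted p = 2.24e-05) and Il1b at -3.28 (adjusted p = 4.31e-04). Against macrophage-like wells Nfkbia alone differed, by -1.96 (adjusted p = 0.0481, and 0.112 with library totals), 0.00845% of 11835 tested. Among the 30 lower genes 6 were leading genes of the clusters themselves (Clec4e, Cyp4f18, Hcar2, Il1r2, Il1rn and S100a8), and among the 8 lower genes 1 was, Clec4e.

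The share of neutrophil markers in these wells was also lower, at 3.33, 3.12, 1.46 and 1.26% in WT1, WT2, KO1 and KO2, and their endothelial markers were higher (0.227, 0.124, 0.920 and 0.361%). KO2 entered with 20 wells. Neutrophil-like wells held 92.9 and 93.6% of all Il1f9 UMIs of the WT animals and 8.51 and 8.56% of those of the KO animals. Whether the marker shares moved these differences was not tested.

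**Figure D3:**
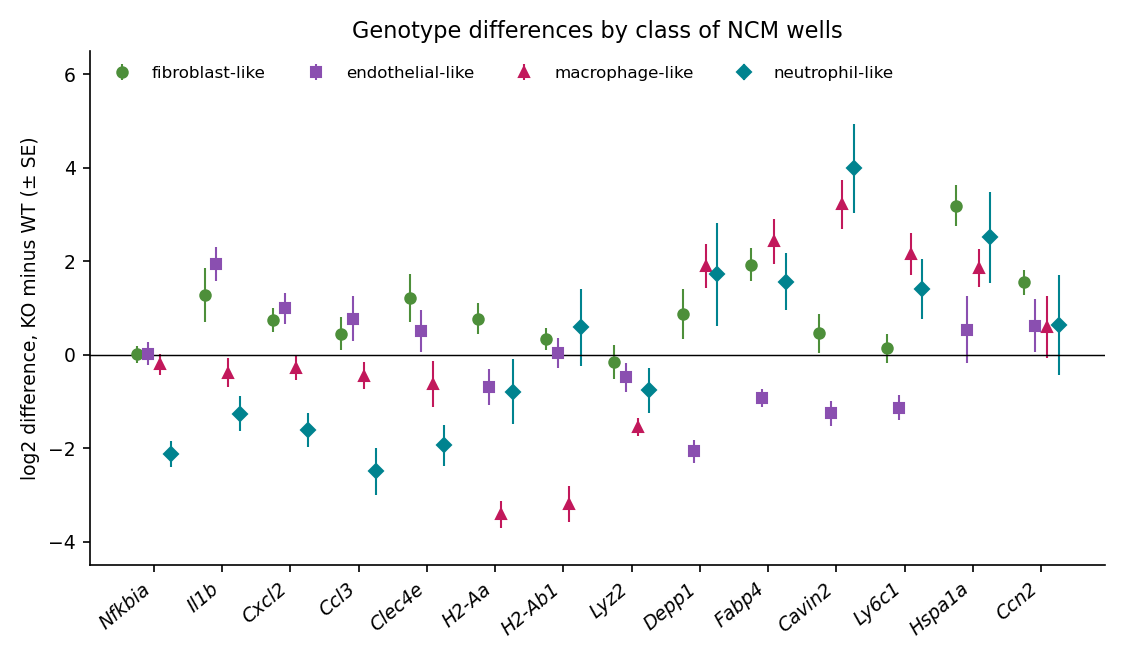
Log2 difference, KO minus WT (y axis, with SE bars), of 14 genes (x axis) in fibroblast-, endothelial-, macrophage- and neutrophil-like NCM wells. Nfkbia lies at -2.13 in neutrophil-like wells and near 0 in the others, H2-Aa and H2-Ab1 lie lowest in macrophage-like wells, and Depp1 is lower in endothelial-like wells.

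Interferon-stimulated genes were higher in level, unevenly between the KO animals. Of 24 tested, 10 were higher in both KO animals and 0 lower (median 0.58). Rsad2 (viperin), which makes an antiviral nucleotide, stood at 64.2, 48.2, 189 and 355 normalised CPM (log2 difference 2.27 ± 0.36, adjusted p = 0.267 by edgeR). Its neighbour Cmpk2 stood at 5.28, 4.45, 26.7 and 54.6 (3.06 ± 0.50), and Gbp2, a guanylate-binding protein, at 32.0, 39.3, 82.8 and 96.8 (1.33). Mx1 stood at 12.9, 4.36, 2.75 and 78.2 and so was high in KO2 alone, and without KO2 the list's median was 0.09, with 0.26 in thinned wells. In macrophage-like wells 5 of the 24 were higher and 1 lower, near the 17% background there, with Rsad2 at 94.1, 72.8, 288 and 760 and Cmpk2 at 2.78, 4.05, 31.8 and 347. Macrophage-like wells held 81.2% of the Cmpk2 UMIs of KO2. The transcription factor Irf8 stood at 18.0, 16.8, 69.0 and 60.2 across the fraction, but 5 wells held 49.6% of its UMIs in KO1 and 63.6% in KO2. MHC class I presentation genes, many of them interferon-induced too, were near the background (5 of 19 higher, 4 lower, median 0.03).

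Of 21 core genes of the Hippo pathway, which act beside, above and below MST1/2, 8 were higher in both KO animals and 4 lower (median 0.50, and 0.16 without KO1). Sav1, the scaffold of the kinases, stood at 8.17, 15.8, 42.7 and 34.9 normalised CPM (log2 difference 1.69), and Wwtr1, which encodes TAZ, at 71.7, 66.0, 131 and 121 (0.87). Yap1 stood at 12.5, 8.99, 23.4 and 13.3 and Lats2 at 33.9, 35.3, 60.7 and 50.4, while Lats1 overlapped at 14.3, 11.3, 10.5 and 17.6. The median of the core list was -0.23 over wells with under 30% mitochondrial UMIs, so its direction depended on the wells used.

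Targets of YAP and TAZ kept their direction across the fraction. Of 28, 11 were higher and 2 lower in both KO animals, with a median of 0.54 that stayed between 0.42 and 0.70 over the 16 settings. In endothelial-like wells 4 of 24 were higher and 3 lower (median 0.12, background 20.6 and 19.7%). In fibroblast-like wells it was 7 of 25 and 3 (0.37, background 20.1 and 23%). Macrophage-like wells had 6 of 23 and 2 (0.56, background 17 and 24.1%). Neutrophil-like wells had 7 of 19 and 4 (0.63, background 15.6 and 21.7%). The median in the CM fraction was 0.11. Ccn2, the matricellular growth factor and best known target, stood at 111, 115, 204 and 321 normalised CPM (log2 difference 1.21). Amotl2, an angiomotin that binds YAP, stood at 12.96, 7.94, 43.6 and 52.7 (2.20), though endocardial-like wells held 60.5% of its UMIs in KO2. Ankrd1, a stress gene of muscle and a target too, stood at 52.3, 124, 159 and 227. Ccn1 and Myof overlapped, and Gadd45b was lower (353, 326, 212 and 201). In fibroblast-like wells Ccn2 stood at 146, 191, 432 and 549 (1.54 ± 0.27, adjusted p = 0.441 by edgeR), with both KO animals at more than 2 times either WT animal. In endothelial-like wells it overlapped at 51.5, 99.8, 98.9 and 133.

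**Figure D4:**
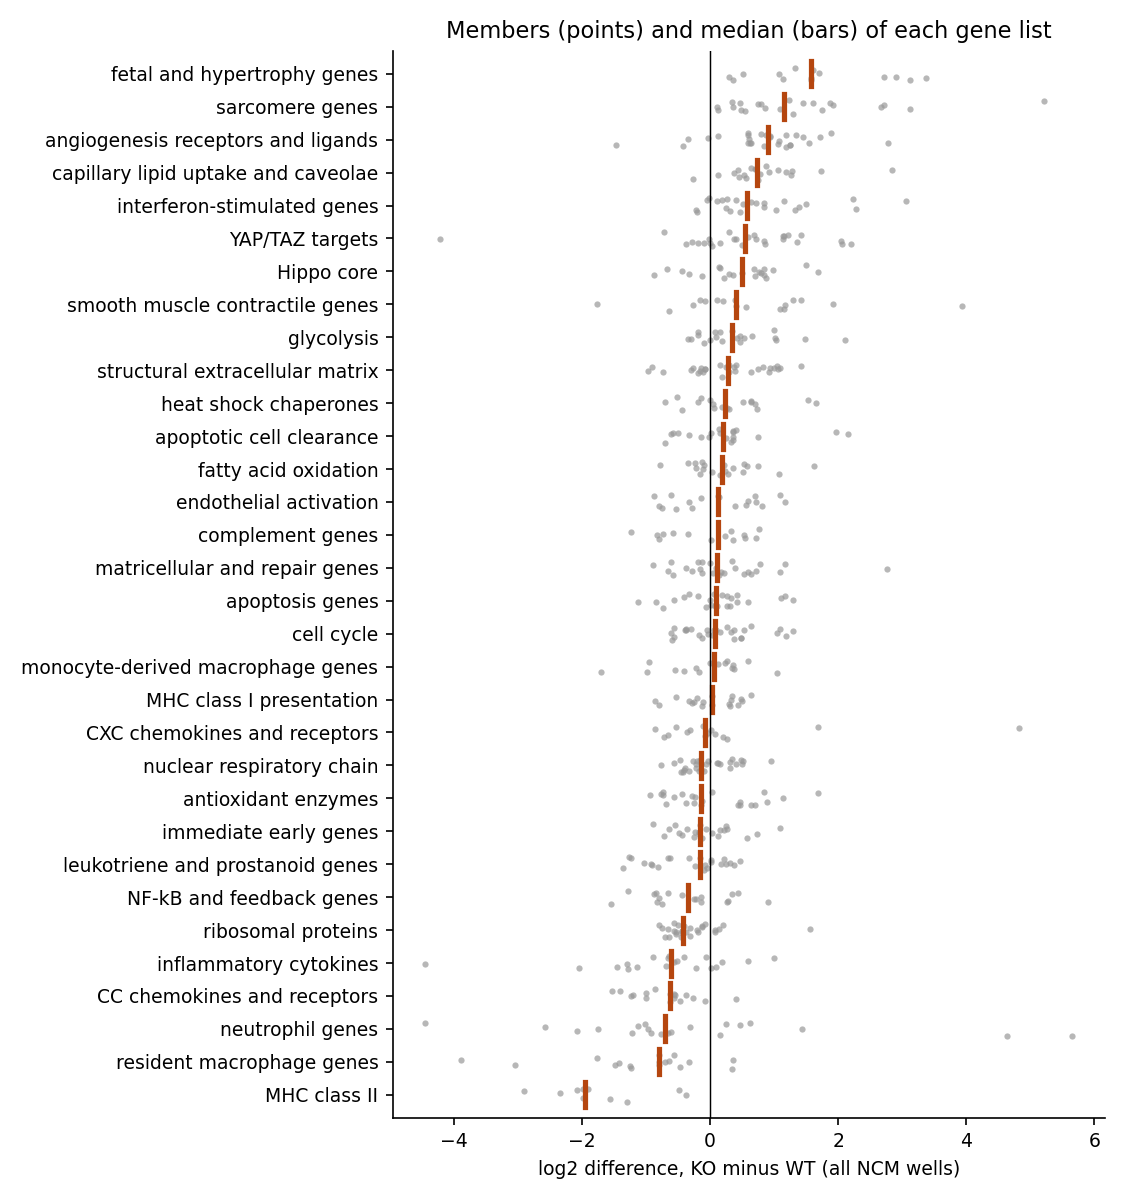
Log2 difference, KO minus WT, of every tested member (points) and the median (bars) of 32 gene lists over all NCM wells (x axis in log2 units). The MHC class II list has the lowest median (-1.95), and fetal and hypertrophy genes the highest (1.57).

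Endothelial genes were higher across the fraction but not within endothelial-like wells. Of 28 angiogenesis receptors and ligands, 20 were higher in both KO animals and 2 lower (median 0.90). The median was 0.51 without KO1, 0.60 without WT1, 0.40 over wells with under 30% mitochondrial UMIs and 0.48 with thinned wells. Kdr, the main VEGF receptor, stood at 66.0, 137, 373 and 181 normalised CPM (log2 difference 1.45), and Notch4 at 12.5, 21.8, 82.8 and 43.7 (1.88). The endothelial transcription factor Erg stood at 20.3, 28.9, 95.9 and 79.6 (1.83). In endothelial-like wells only 6 of these genes were higher and 10 lower (median -0.28), against a background of 20.6% of 11975 genes higher and 19.7% lower, and Kdr overlapped at 785, 703, 725 and 528. Over wells with under 30% mitochondrial UMIs, Kdr was -0.44 and Nrp1, a VEGF coreceptor, -0.10 across the fraction, opposite in sign to their values over all wells. Of those wells with under 30%, 2 of KO1 and 6 of KO2 were endothelial-like, against 63 of WT1 and 124 of WT2. The endothelial marker share given above was highest in KO1.

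Within endothelial-like wells, genes of capillary identity were lower. Depp1, a FOXO target, stood at 5075, 5159, 1069 and 1364 normalised CPM (log2 difference -2.07 ± 0.24, adjusted p = 0.238 by edgeR). Ly6a stood at 4824, 5043, 2005 and 2330, and Fabp4, the fatty acid binding protein of cardiac capillaries, at 9982, 10850, 5631 and 5308. Gpihbp1, which anchors lipoprotein lipase on the capillary wall, stood at 5158, 5806, 2238 and 4089. Of 20 capillary lipid uptake and caveolae genes, 11 were lower in both KO animals and 0 higher (median -0.76), although the same list was higher in 9 members and lower in 1 over the whole fraction. The fraction-wide median of 0.73 was 0.12 over wells with under 30% mitochondrial UMIs, 0.15 with thinned wells, 0.38 without WT1 and 0.43 without KO1. Depp1, Fabp4 and Gpihbp1 are among the leading genes of this cluster, so their levels also helped to place wells in it. The macrophage and neutrophil genes Il1b and Arg1 were higher in these wells, Il1b at 204, 248, 664 and 1074 and Arg1 at 45.6, 45.7, 223 and 230. Other leukocyte genes were mixed. Spp1 (700, 591, 1456 and 1578) and Pf4 (551, 613, 1078 and 688) were higher in both KO animals. H2-Eb1 was lower at 390, 238, 179 and 77.0, and Lyz2 overlapped at 1782, 1184, 916 and 1199. Of resident macrophage genes 6 of 15 were higher and 1 lower, and of monocyte-derived ones 8 of 16 and 1. Of neutrophil genes 5 of 14 were higher and 0 lower, and of MHC class II genes 1 of 8 and 2. The background in these wells was 20.6% higher and 19.7% lower. The wells' endothelial markers took 2.77, 3.32, 1.85 and 1.79% of UMIs, their neutrophil markers 0.0530, 0.0472, 0.116 and 0.159% and their macrophage markers 0.386, 0.325, 0.502 and 0.450%. The part of that RNA in the differences was not tested.

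Capillary genes went the other way in macrophage-like wells, and this difference passed the test. The genotype difference was higher in macrophage-like than in endothelial-like wells for 9 genes, 0.067% of those tested, against the 1 lower gene, H2-Ab1 (0.00744%). Depp1 differed by 3.98 ± 0.33 (adjusted p = 0.0129 by edgeR), Fabp4 by 3.34, Cavin2, a caveolar coat protein, by 4.45 and Ly6a by 3.12 (adjusted p = 0.0187 each). The others were Timp4, Thrsp, Ly6c1, Ptprr and Gpihbp1, and 5 of the 9 (Depp1, Fabp4, Gpihbp1, Ly6c1 and Timp4) lead the endothelial-like cluster. Fabp4 stood at 154, 280, 1516 and 810 in macrophage-like wells, where the endothelial marker share of the KO animals was higher, as given above. Fibroblast-like minus endothelial-like wells gave 0 genes by edgeR (354 higher and 395 lower at an unadjusted p under 0.05, 2.47 and 2.76%), and so did macrophage-like minus fibroblast-like wells (296 and 478, 1.99 and 3.21%). DESeq2 was not run on differences between classes.

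**Figure D5:**
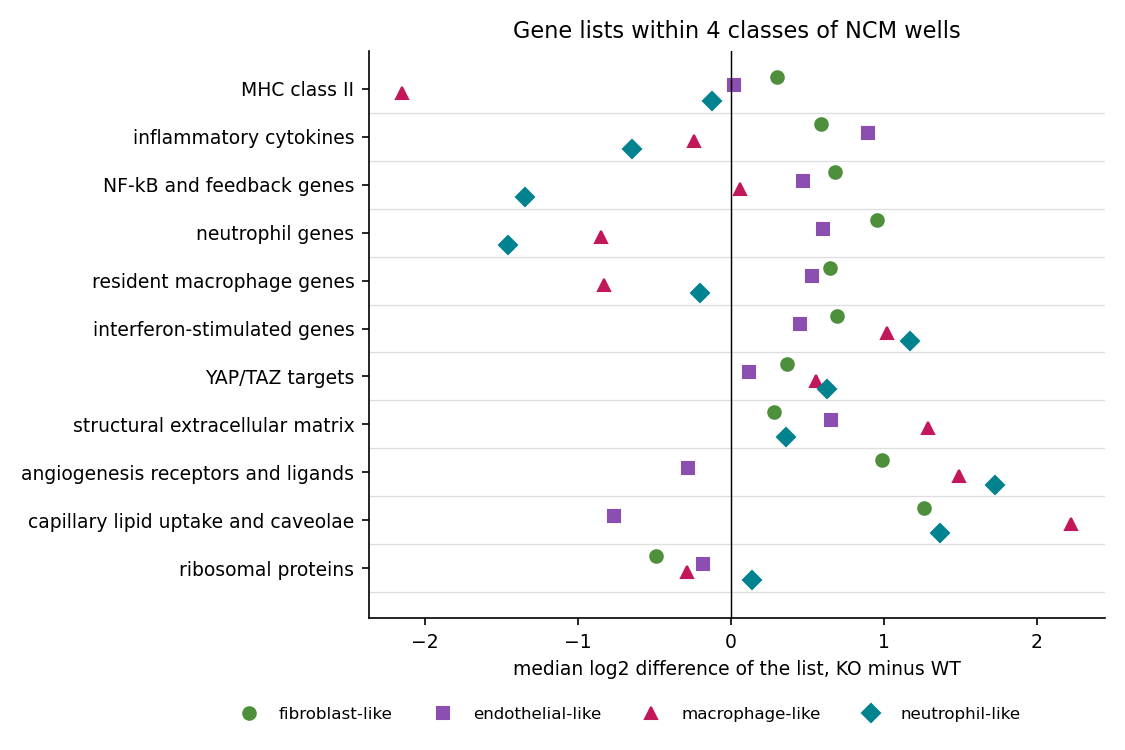
Median log2 difference, KO minus WT (x axis), of gene lists (y axis) within fibroblast-, endothelial-, macrophage- and neutrophil-like wells. MHC class II is low in macrophage-like wells (-2.14) and near 0 in the other classes, and the angiogenesis list is below 0 in endothelial-like wells (-0.28) and above it in the other 3.

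Of 30 structural matrix genes, 12 were higher in both KO animals and 3 lower (median 0.28). That median was -0.15 without WT2, 0.03 without KO2, 0.80 without WT1 and 0.98 over wells with under 30% mitochondrial UMIs. In that last setting fibroblast-like wells held 39413715 of 83284999 UMIs in WT1 and 30002085 of 89741964 in WT2. They held 2304909 of 3128373 in KO1 and 9374715 of 24500798 in KO2. Col4a1, a basement membrane collagen, stood at 335, 423, 793 and 784 normalised CPM (log2 difference 1.06), and the heparan sulphate proteoglycan Hspg2 at 53.9, 67.2, 128 and 121 (1.04). The crosslinking enzyme Lox stood at 145, 83.9, 180 and 275. The fibrillar collagens Col1a1, Col1a2 and Col3a1 overlapped, Col3a1 at 3489, 1487, 2838 and 3279. The small proteoglycans Dcn and Lum, which bind collagen fibrils, were lower, Dcn at 4858, 5602, 2950 and 2606 (-0.91) and Lum at 925, 672, 344 and 469 (-0.97). Among 26 matricellular and repair genes, 6 were higher and 3 lower (median 0.11, and 0.58 over wells with under 30% mitochondrial UMIs). Comp stood at 5.01, 1.42, 21.1 and 22.6 and tenascin C (Tnc) at 70.1, 41.8, 94.2 and 145, whereas Postn, the marker of activated fibroblasts, overlapped at 769, 319, 728 and 960.

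In fibroblast-like wells 4 of 18 heat shock chaperones were higher in both KO animals and 2 lower (median 0.14), near the 20.1% background. The inducible chaperones Hspa1a and Hspa1b were among the higher ones, Hspa1a at 37.8, 19.7, 312 and 214 normalised CPM (log2 difference 3.19 ± 0.44) and Hspa1b at 53.1, 70.6, 503 and 303 (2.70 ± 0.36). Both genes had KO values more than 4 times every WT value. Angptl4, an inhibitor of lipoprotein lipase, stood at 67.5, 61.5, 193 and 334 in the class, and its log2 difference was 1.73 over all NCM wells and 1.80 in the CM fraction. Lum stood at 1763, 1730, 900 and 877. Fibroblast markers took 3.47, 3.66, 3.58 and 3.02% of the UMIs of these wells and endothelial markers 0.126, 0.104, 0.287 and 0.234%. No gene of the class passed the threshold by edgeR (0 of 14211, with 727 higher and 751 lower at an unadjusted p under 0.05, 5.12 and 5.28%, and 299 and 163 by DESeq2). The endothelial-like class likewise gave 0 (564 and 450 at an unadjusted p under 0.05, 4.71 and 3.76%, and 244 and 166 by DESeq2) and the macrophage-like class 0 (539 and 572, 4.41 and 4.68%, and 324 and 188 by DESeq2).

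Ribosomal protein genes were lower as a group, by less. Of 28, 22 were lower in both KO animals and 2 higher (median -0.42). In fibroblast-like wells 21 were lower, against a background of 23% of genes, with Rpl32 at 3161, 3618, 1679 and 1888 normalised CPM. Over wells with under 30% mitochondrial UMIs the median of the list was 0.00.

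Housekeeping and stress lists differed in how they stood to the background of 21.2% higher and 23.6% lower. Of 23 immediate early genes, 4 were higher and 8 lower in both KO animals (median -0.15), and of 18 heat shock chaperones 5 were higher and 4 lower (median 0.23). Of 23 antioxidant enzymes 6 were higher and 9 lower, of 24 apoptosis genes 6 and 5, of 28 cell cycle genes 7 and 4 and of 30 nuclear genes of the respiratory chain 4 and 3. Glycolysis genes stood somewhat higher, with 10 of 21 higher and 1 lower (median 0.35, but 0.11 without KO2). Genes for the clearance of apoptotic cells had 5 of 20 higher and 1 lower (median 0.20), and complement genes had 4 of 14 higher and 6 lower (median 0.12).

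Muscle genes were higher in level in the fraction, with cardiomyocyte RNA present in all animals. Of 22 sarcomere genes, 8 were higher and 0 lower (median 1.16, but 0.12 without KO2 and 0.59 without WT1). Of 14 fetal and hypertrophy genes 9 were higher and 0 lower (median 1.57, and 1.06 in the CM fraction), and that median was 0.80 without WT1, 2.86 without WT2 and 0.87 over wells with under 30% mitochondrial UMIs. Cardiomyocyte-like wells numbered 14, 41, 35 and 216 and held 0.797, 4.21, 3.32 and 19.6% of the UMIs of WT1, WT2, KO1 and KO2. Xirp2, an actin-binding gene of striated muscle, stood at 7.85, 15.4, 94.6 and 79.6 normalised CPM (log2 difference 2.90). Without erythroid-like and cardiomyocyte-like wells, a setting chosen after seeing the data, the sarcomere median was 1.26. Slc25a37, the iron carrier of erythroid mitochondria, stood at 17.3, 20.6, 57.4 and 101, higher in both KO animals. Beside it stand erythroid-like wells in numbers of 3, 4, 48 and 126 and the haemoglobin share given above. In endothelial-like wells Slc25a37 stood at 1.53, 4.94, 49.1 and 519, and across the fraction 5 wells held 58.8% of its UMIs in KO2.

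The genotype differences of the NCM fraction were set against those of the CM fraction in 1 model with the animal as a block. No gene passed the threshold by edgeR (0 of 17509 in each direction), and at an unadjusted p under 0.05 there were 476 higher and 390 lower in the NCM fraction, 2.72 and 2.23%. DESeq2 was not run on this difference. For H2-Ab1 the difference between fractions was -1.65 ± 1.28 on the log2 scale (adjusted p = 0.955 by edgeR). So none of the patterns above was shown to be particular to the NCM fraction.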

How the data were processed

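Wells on 4 chips were measured, and the authors deposited UMI counts per gene and well with a per-well report. The sum over genes equalled the report's UMI number in 4315 of 4315 wells. The kit was Nextera XT, per the labels' protocols. Reads were handled against mm10, and the tools named are Subread 1.4.6-p1, STAR 2.5.2b and featureCounts, per the submitters' processing notes. For annotation release, strand setting and UMI rule the entry is "not given in the sources used here", so overlapping, antisense and near-identical genes are uncertain.

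Of 29245 gene columns 28604 matched a symbol, and 70 spike-in columns (196 UMIs in NCM wells) and 20 control wells (negative controls at a median of 117 UMIs) were left out. All columns of values belonged to a sample (0 unmatched). Kept NCM wells had median UMI numbers of 64289.5 in WT1, 76008 in WT2, 81726 in KO1 and 96782 in KO2, and median numbers of detected genes of 2372, 2270, 1839 and 2438. Totals left out 33 mitochondrial and 9 haemoglobin genes. At an even depth of 5000 other UMIs the median number of genes was 1107, 971.5, 1040 and 1187.5.

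Clustering used scanpy 1.11.5 (with anndata 0.12.19, leidenalg 0.10.2, scikit-learn 1.9.0, numpy 2.4.6, scipy 1.17.1, pandas 2.3.3, Python 3.11.15) and was run on 2000 variable genes, 30 components and 15 neighbours at resolution 1.0. A cluster took a "-like" name when at least 3 markers of a type were among its 30 leading genes and no other type had more among the first 10. Names were rebuilt here and are not the authors'. Scrublet marked 5 WT and 1 KO wells as doublets, under 0.5% of wells, and these were kept.

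Counts were summed per animal, or per animal and class with at least 20 wells each, and tested with edgeR 4.0.16 (quasi-likelihood, TMM, filterByExpr, Benjamini-Hochberg, threshold 0.05; R 4.3.3, limma 3.58.1). DESeq2 1.42.0 was the other tool. Class and fraction differences were interaction terms with the animal as a block. Adjusted p values are from edgeR over all genes tested, and the fits were tested on simulated data. The labels do not say that the animals were independent littermates or batches. The p values set each difference against the spread of these 4 animals within their genotypes, and the difference itself cannot be told apart from that of the chips. CPM per cluster are of plain totals.

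Named genes were Stk4 and Stk3, the 12 higher and 12 lower genes with the smallest p among genes without overlap whose mean reached 10 CPM (4202 genes, of which 474 predicted genes or pseudogenes were not named), up to 4 members with the smallest p and the most abundant member of each of 32 lists, and the same rule in each class with 5 genes a direction. Genes outside it, such as Ltb4r1, Ciita, Yap1, Lats1, Gas6 and Camp, were chosen after their values were seen. Of the 12 higher genes 1 is not reported here. The members and lists were chosen with earlier results of these data known. Numbers in the animal names do not pair the animals (correlations of same-numbered deviations from -0.0123 to 0.0152 over the fits). Figures used matplotlib 3.10.9.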

Additional observations from a re-analysis of the deposited data

Results flagged for a closer look

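The genotype difference itself differed between classes of NCM wells for several sets of genes, each by a test of the difference in edgeR. It was higher in macrophage-like than in endothelial-like wells for 9 genes and lower for 1 gene, H2-Ab1. It was higher in neutrophil-like than in endothelial-like wells for 3 genes (Cavin2 by 4.50, Depp1 by 4.04 and Fabp4 by 2.31) and lower for 8, among them Slfn4 at -8.84, Pde4b at -5.05 and Fth1 at -1.63. In endothelial-like wells Slfn4 was barely counted in WT animals and higher in KO animals, at 0.436, 0.176, 25.3 and 190 normalised CPM (log2 difference 8.53). Its value of -8.84 thus holds that rise and is not a fall of that size in neutrophil-like wells. The genotype difference was higher in neutrophil-like than in fibroblast-like wells for 3 genes (Ada by 7.02, Tmem126a by 4.78 and Ctla2a by 3.74) and lower for 30, among them Acod1 at -5.17 and Srgn at -3.40. Against macrophage-like wells it was lower for 1 gene, Nfkbia. No group here had 4 samples, so single samples were not examined for standing apart.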

How the results depend on the processing

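The counts of genes past the threshold depended on the tool, since edgeR gave 0 in the fraction and in each class. DESeq2 called 390 higher and 371 lower genes over the fraction, 244 and 166 in endothelial-like, 299 and 163 in fibroblast-like, 324 and 188 in macrophage-like and 187 and 120 in neutrophil-like wells. With every gene of at least 1 UMI tested, edgeR called 113 and 113, 101 and 67, 155 and 125, 213 and 65, and 59 and 46 in the same order. With wells thinned to 10000 UMIs it called 8 and 9 over the fraction, 2 higher in fibroblast-like and 3 and 2 in macrophage-like wells. Thinning counted mitochondrial and haemoglobin UMIs, which were then left out. The thinned NCM sums held 5974017, 5633834, 2461245 and 3519724 UMIs in WT1, WT2, KO1 and KO2, so the depth tested stayed uneven. With mitochondrial and haemoglobin genes kept, 9 genes were higher in neutrophil-like wells. Leaving out 1 animal at a time, where the lone animal is assumed to vary like the others, gave 0 to 1 lower over the fraction (1 without WT1), 0 to 56 higher and 0 to 11 lower in endothelial-like (56 and 11 without KO1), 0 to 17 and 0 to 1 in macrophage-like (17 and 1 without KO1) and 5 to 81 and 3 to 25 in neutrophil-like wells (81 without KO1, 25 without KO2). For the NCM and CM difference it gave 0 to 4 higher and 0 to 1 lower (4 and 1 without KO2). With library totals alone, the difference between classes gave 3 higher genes for fibroblast-like minus endothelial-like, 0 lower for macrophage-like minus endothelial-like, 1 lower for macrophage-like minus fibroblast-like, 15 higher for neutrophil-like minus endothelial-like, 5 higher for neutrophil-like minus fibroblast-like and 0 lower for neutrophil-like minus macrophage-like wells. The cause of these changes was not tested.

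With the number in the animal names as a replicate block, 1 gene was higher and 3 were lower in neutrophil-like wells, and no other count changed. Of single genes over the fraction, Stk3 ranged from -0.67 (without WT1) to 0.089 (without WT2) and Ciita from -1.23 (without KO1) to 0.48 (without WT2), with 0.17 without KO2, so both turned sign. Over wells with under 30% mitochondrial UMIs the sign turned for Ccl24 (0.47), Nrp1 (-0.10), Kdr (-0.44), Fabp4 (-0.36), Rps14 (0.18) and Prdx6 (0.11). The mix of classes among those wells differed between KO and WT, as given above, and its part was not tested. The haemoglobin difference was 5.92 percentage points of summed UMIs and 1.20 as the median over wells. The class fits over wells with under 30% mitochondrial UMIs, and the neutrophil-like fit over wells with at least 20000 UMIs, were not run because fewer than 20 wells were left in an animal.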

Other observations

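Gene models in the nuclear genome that copy mitochondrial sequence (9 models with at least 90% identity over at least 80% of their length) had higher values in both KO animals, for example Gm13341 at 719.8, 1167, 13919 and 6465 normalised CPM in WT1, WT2, KO1 and KO2. Leaving them out, a setting chosen after seeing the data, turned the sign of no named gene over the fraction.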
